A study of Drosophila melanogaster with 4 samples.

Results

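The transcripts described here are 767 rows in the order of their numbers, out of 15634 transcripts of *Drosophila melanogaster* measured. Their place in the middle of the left arm of chromosome 2 (2L) is assumed from the numbering. They were taken by FlyBase transcript number, from FBtr0080133, the transcript of Fatp1, to FBtr0081122, the transcript that carries CG10570 and CG42502. The range spans 990 numbers, so some have no row here, and rows next to each other need not have adjacent numbers. The rule uses numbers only, but the block was proposed with results of these data known, and the transcript it ends on has the block's largest difference towards Kc. Their levels were compared between Kc cells, an established line derived from embryos and grown here without serum, and Mbn2 cells, an established line derived from larval blood cells carrying the tumour mutation l(2)mbn and grown here with 10% fetal calf serum. Neither line was treated, and each was represented by 2 samples, described as biological replicates, on 1 single-colour array each. The effects of line and medium cannot be told apart. The labels do not say whether replicates were separate cultures, so p-values measure the spread between these samples, which may be technical.

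Genes of a chromosome arm are transcribed one by one, but neighbours often share a level or a tissue, because tandem copies of a gene lie side by side and because chromatin states extend over more than 1 gene. The middle of 2L holds the Adh region, one of the classical stretches of fly genetics, named for the alcohol dehydrogenase gene Adh. In the RefSeq gene table (Release 6 plus ISO1 MT), 1116 genes lie from Fatp1 to CG42305, the neighbour of CG10570 and CG42502, and 819 of them code for proteins. They include Adh, the germ line RNA helicase gene vas, the Snail family transcription factor genes esg, sna and wor, the Notch pathway transcription factor gene Su(H), the cyclin gene CycE, the Toll pathway inhibitor gene cact and the secreted growth factor genes Idgf1, Idgf2 and Idgf3. Of 31 such landmark genes listed for the region, 26 lie in this interval, but none of them could be paired with a measured transcript.

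The array file names transcripts by number only. The gene table paired 4 of the 767 numbers with genes, and the other 763 are unnamed here. The 4 are Fatp1, CG16974, CG17325 with CG42305, and CG10570 with CG42502. In the gene table their order along the arm is Fatp1, CG16974, CG10570 and CG17325, so these 4 transcript numbers followed the arm except that CG17325 is numbered before CG10570. None of 32 marker genes for blood cells, fat body, neurons, muscle and germ line was paired with any transcript, so the labelled cell types could not be checked against markers. No sequence or coordinate is given, since the build of the array's annotation is not given in the sources used here.

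Values are log2 RMA (robust multi-array average) expression values as the authors deposited them. Over the 767 transcripts of the block, replicate samples correlated at 0.996 for Kc and at 0.997 for Mbn2 (Pearson's r), whereas samples from different lines correlated at 0.920 to 0.926. The transcripts share arrays, so these values describe the arrays only. Replicates lay a median of 0.14 log2 units apart for Kc and 0.11 apart for Mbn2.

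The block was dimmer than the other transcripts measured, in both lines. A transcript is called dim in a line when its mean is under 6 and bright when it is over 8. The median level over the block was 6.23 in Kc and 6.32 in Mbn2, against 8.69 and 8.65 over the other 14867 transcripts, on the log2 RMA scale. In the block 330 transcripts (43.0%) were dim in both lines, compared with 28.6% of the others. Bright in both lines were 279 block transcripts (36.4%), compared with 49.8% of the others, and 133 (17.3%) lay between the limits in at least 1 line. The brightest block transcript, FBtr0080163, was high in both lines, with means of 15.08 in Kc and 14.95 in Mbn2, and was chosen after its values were seen. Levels of different transcripts are not compared per length here, because single array values depend on the probes.

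**Figure D1:**
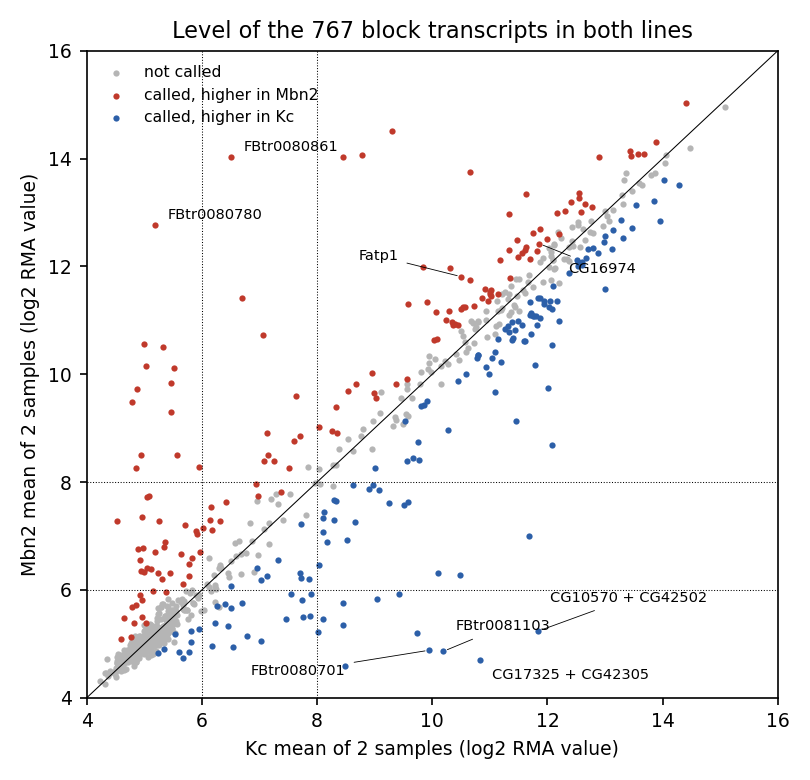
Mean log2 RMA value of each of the 767 block transcripts in Kc (horizontal axis, 2 samples) and Mbn2 (vertical axis, 2 samples). Dotted lines mark 6 and 8, the solid line marks equal levels, and colour gives the limma call. The grey crowd at the lower left holds most of the 330 transcripts that were dim in both lines, and the transcripts far from the diagonal at the upper left and lower right include the 25 that were bright in one line and dim in the other.

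Calls were made with limma over all 15634 transcripts, and a difference is called when its adjusted p is under 0.05. In the block 292 of 767 transcripts (38.1%) were called, against 48.2% of all transcripts measured. They split evenly, with 146 higher in Mbn2 and another 146 higher in Kc, each 19.0% of the block. Over all transcripts measured, the shares were 21.2% for Mbn2 and 27.0% for Kc. Without moderation of the variances, 77 and 79 block transcripts were called. At least 2-fold differences were called for 67 block transcripts higher in Mbn2 (8.74%, background 10.5%) and 55 higher in Kc (7.17%, background 10.2%), and without moderation for 39 and 41. At least 8-fold apart were 18 higher in Mbn2 (2.35%, background 2.80%) and 13 higher in Kc (1.69%, background 1.67%). The middle 50% of block differences, Mbn2 minus Kc, ran from -0.23 to 0.26 log2 units, and the extremes were -6.60 and 7.58.

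Few of the many dim transcripts were called. Among transcripts dim in both lines, 21 of 330 in the block were called (6.36%), against 9.62% of all such transcripts. Among those bright in both, 154 of 279 were called (55.2%), against 60.4% of all. Among those between the limits in at least 1 line, 92 of 133 were called (69.2%), against 68.5% of such transcripts elsewhere. The classes rest on the same line means as the calls, so these shares are descriptions.

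The even split held for the brightest transcripts as well. Of the 252 block transcripts over 9 in both lines, 137 were called (54.4%, background 59.2%). Of these, 64 were higher in Mbn2 (25.4%, background 24.3%) and 73 higher in Kc (29.0%, background 34.9%). Their median difference was -0.015 log2 units, and in the 4 pairings of an Mbn2 sample with a Kc sample it ran from -0.053 to -0.0038. For the other 6446 transcripts over 9 in both lines the median was -0.12, and the 4 pairings ran from -0.14 to -0.10. The 2 ranges did not overlap, but the pairings within each share samples. With each transcript's mean over the 4 samples subtracted, an alternative chosen after the data were seen, the median of these block transcripts minus that of the others was -0.057 and -0.050 in the Kc samples and 0.032 and 0.050 in the Mbn2 samples. This gave a difference of 0.094, with an exact permutation p of 0.333 (two-sided), which is the smallest that 2 against 2 samples allow. The plain medians of the same transcripts, block minus others, were 0.13 and 0.089 in the Kc samples and 0.066 and 0.045 in the Mbn2 samples, a difference of -0.053 in the opposite direction (exact permutation p = 0.333, two-sided). For these bright transcripts the direction relative to the others therefore depended on how the median was taken. Over all block transcripts both ways gave a difference towards Mbn2. With row means subtracted, block minus others was -0.036 and -0.048 in the Kc samples and 0.024 and 0.048 in the Mbn2 samples, a difference of 0.078 (exact permutation p = 0.333, two-sided). The plain medians were -2.62 and -2.31 in Kc and -2.33 and -2.38 in Mbn2, which overlapped, with a difference of 0.11 (exact permutation p = 1, two-sided). When every difference was measured from the median of all transcripts over 9 in both lines, which lies at -0.11, the block held 183 calls towards Mbn2 and 123 towards Kc. Of the block's calls 59.8% then pointed to Mbn2, against 52.5% of the calls over all transcripts. Before this centring the shares were 50% and 44.0%, so both moved the same way.

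Some transcripts were bright in one line and dim in the other. Dim in Kc and bright in Mbn2 were 13 (1.69%, background 1.67%), with Kc means of 4.79 to 5.95, Mbn2 means of 8.26 to 12.77 and a median difference of 4.59. Bright in Kc and dim in Mbn2 were 12 (1.56%, background 1.23%), with Kc means of 8.02 to 11.84, Mbn2 means of 4.58 to 5.93 and a median difference of -3.70. All 25 passed the test (limma adjusted p up to 0.000498). With stricter limits of 5.5 and 9, the counts were 8 and 5. The files give no background level, so the true size of these differences is unknown and no fold is given for a transcript that was dim in one line.

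Fatp1 encodes a fatty acid transport protein, of a family that takes up fatty acids and couples them to coenzyme A, and in the fly eye it is needed to keep photoreceptors alive. Its transcript opens the block. Its values were 10.58 and 10.43 in the Kc samples and 11.85 and 11.77 in the Mbn2 samples, so both Mbn2 samples lay above both Kc samples. The difference of 1.31 log2 units (95% interval 1.03 to 1.58) was a 2.47-fold higher level in Mbn2 (limma adjusted p = 0.000362). Fatp1 was the one identified member of a list of 14 genes of fatty acid uptake and activation. The list members bgm, hll and mdy also lie in the interval in the gene table, but were not paired with a transcript. The 2 transcripts numbered just before Fatp1, outside the block, were dim in both lines, with differences of -0.16 and -0.11.

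The transcript of CG16974 lies at place 283 in the order. It was bright in every sample, at 11.93 and 11.78 in Kc and 12.37 and 12.47 in Mbn2. The groups did not overlap, but the gap was small beside that of Fatp1. The difference of 0.56 log2 units (95% interval 0.28 to 0.84) was called with a limma adjusted p of 0.00895, which ranged from 0.000208 to 0.0724 over the alternatives. It was 0.055 without Mbn2 replicate 2 and 0.0724 without moderation of the variances, so the call was lost under both of these alternatives.

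**Figure D2:**
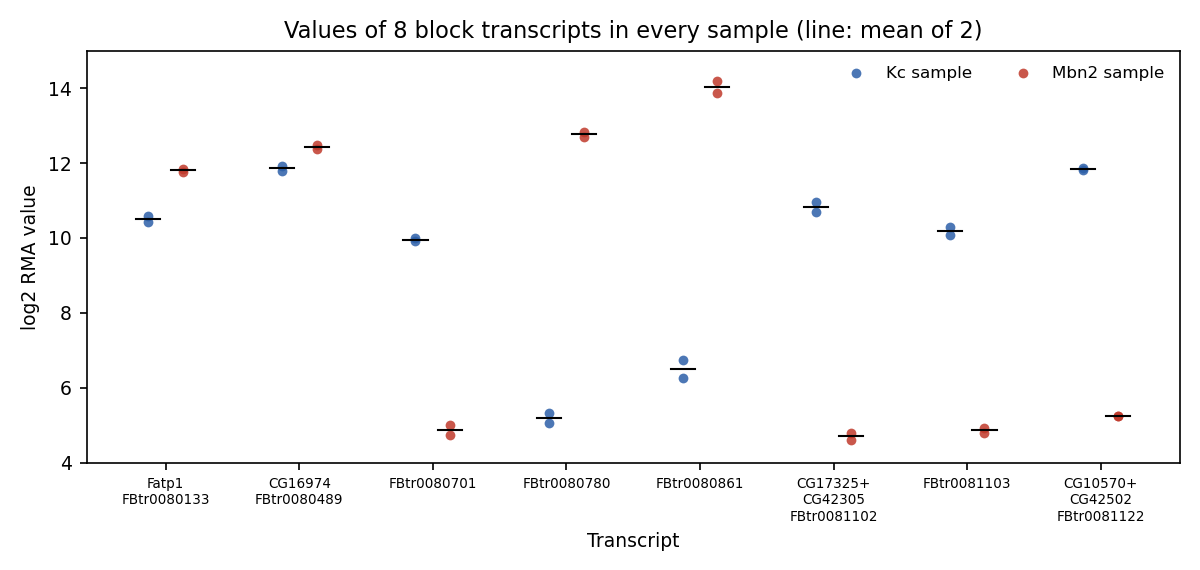
Log2 RMA value (vertical axis) of the 4 named and 4 unnamed block transcripts in each of the 2 Kc and 2 Mbn2 samples, with a black line at the mean of each line's samples. The gap between the line means is 0.56 log2 units for CG16974, whose Kc samples are at 11.93 and 11.78, and 7.58 for FBtr0080780.

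The last transcripts of the block held its 3 largest differences towards Kc. The transcript of CG17325 and CG42305 was at 10.96 and 10.68 in the Kc samples and at 4.79 and 4.62 in the Mbn2 samples. The transcript numbered next to it, FBtr0081103, was at 10.30 and 10.09 in Kc and 4.80 and 4.93 in Mbn2. The transcript of CG10570 and CG42502 was at 11.82 and 11.86 in Kc and 5.24 in both Mbn2 samples. All 3 were bright in both Kc samples and dim in both Mbn2 samples. Their differences were -6.12, -5.33 and -6.60 log2 units, with limma adjusted p of 3.93e-06, 3.93e-06 and 2.53e-06.

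CG10570 and CG17325 are immediate neighbours in the gene table, although 11 transcripts lie between them in the numbering. These 11 include FBtr0081103 and a transcript higher in Mbn2, FBtr0081109 (difference 0.70, limma adjusted p = 0.0128). The first transcript past the end of the block, FBtr0081123, was at 13.49 and 13.64 in Kc and 7.39 and 7.71 in Mbn2, a difference of -6.02. The high Kc levels therefore continued across the boundary that the rule set. The 2nd transcript past it, FBtr0081124, differed by -0.037 and was not called (limma adjusted p = 0.913). The roles of CG10570, CG42502, CG17325 and CG42305 are not given here, and 1 array value cannot tell the reading frames of a shared transcript apart.

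The largest differences among unnamed transcripts were towards Mbn2. FBtr0080780 was at 5.06 and 5.32 in the Kc samples and 12.83 and 12.71 in the Mbn2 samples, a difference of 7.58 ± 0.13 (standard error, limma adjusted p = 2.88e-06). FBtr0080861 was at 6.75 and 6.27 in Kc and 13.87 and 14.19 in Mbn2, a difference of 7.52 ± 0.20 (standard error, limma adjusted p = 5.40e-06). Towards Kc, the largest unnamed differences were those of FBtr0081103, above, and of FBtr0080701, at 9.91 and 9.99 in Kc and 5.02 and 4.75 in Mbn2.

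**Figure D3:**
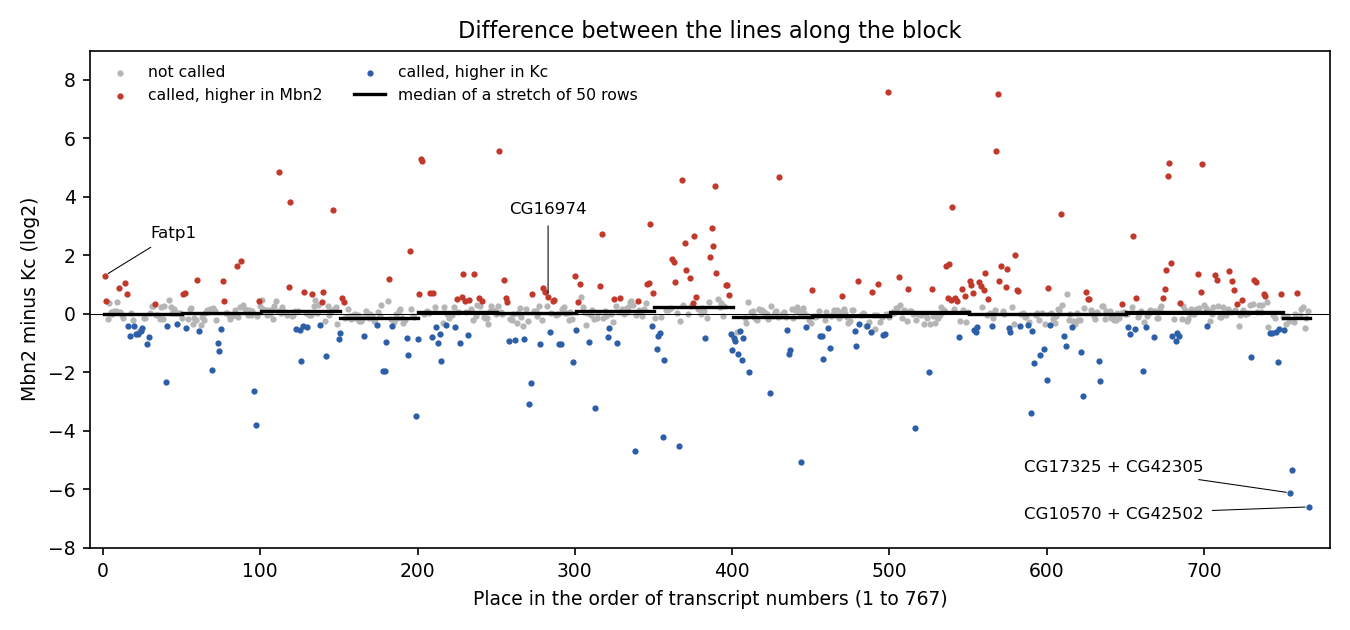
Difference between the lines (vertical axis, Mbn2 minus Kc, log2) for each block transcript in the order of its number (horizontal axis, places 1 to 767), coloured by limma call. Black lines give the median of each stretch of 50 transcripts, which stays between -0.13 and 0.23 over the 15 full stretches, while single transcripts reach from -6.60 to 7.58.

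Along the numbering the block was cut into 15 stretches of 50 transcripts and a last one of 17. The median difference of the full stretches ran from -0.13 to 0.23 log2 units. The same stretches over the other transcripts, 297 in number, ran from -0.69 to 0.73 with a median of -0.064. Calls per stretch ranged from 28.0% to 62.0% of transcripts in the block and from 12.0% to 76.0% elsewhere. A range widens with the number of stretches, so the ranges over 15 and 297 stretches are not compared at equal number. The first 383 transcripts held 71 calls towards Mbn2 and 73 towards Kc, and the last 384 held 75 and 73.

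The sign of the stretch median changed at several places, and the widest step between adjacent full stretches lay near the middle. The stretches singled out below were chosen after their values were seen. Each was an extreme of the block's full stretches on a measure given for it. Counts of stretches elsewhere that match them do not allow for that choice. Stretch 8, FBtr0080571 to FBtr0080632, held 18 transcripts called towards Mbn2 and 9 towards Kc, and 13 of the 18 were at least 2-fold higher. Its median difference was 0.23, and the 4 pairings of samples gave 0.19 to 0.27. Of the 297 stretches elsewhere, 18 had a median as high and 11 had as many transcripts 2-fold higher in Mbn2. The next stretch, FBtr0080633 to FBtr0080709, held 1 call towards Mbn2 and 13 towards Kc, 7 of these at least 2-fold. Among the other stretches 6 of 297 had so few higher in Mbn2. Stretch 9 held 28 transcripts dim in both lines, against a median of 13 in the stretches elsewhere. Whether this bears on its calls was not tested.

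In stretch 10, FBtr0080711 to FBtr0080781, the bright transcripts leaned towards Kc. Of its 16 transcripts over 9 in both lines, 9 were higher in Kc and 3 in Mbn2. Their median difference was -0.55, and the 4 pairings gave -0.63 to -0.47. Among 288 stretches elsewhere with at least 10 such transcripts, 17 had a median as low. The same stretch holds FBtr0080780, the transcript with the largest difference towards Mbn2.

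The 2 stretches that follow differed in level. Stretch 11, FBtr0080782 to FBtr0080839, was the dimmest, with 33 of 50 transcripts dim in both lines, and 1 of 297 stretches elsewhere held as many. Its calls were 12 towards Mbn2 and 3 towards Kc, where the stretches elsewhere had a median of 10 (range 0 to 35) and 13 (range 1 to 30). Stretch 12, FBtr0080840 to FBtr0080914, held 27 transcripts over 9 in both lines and the most calls, 17 higher in Mbn2 and 14 higher in Kc.

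**Figure D4:**
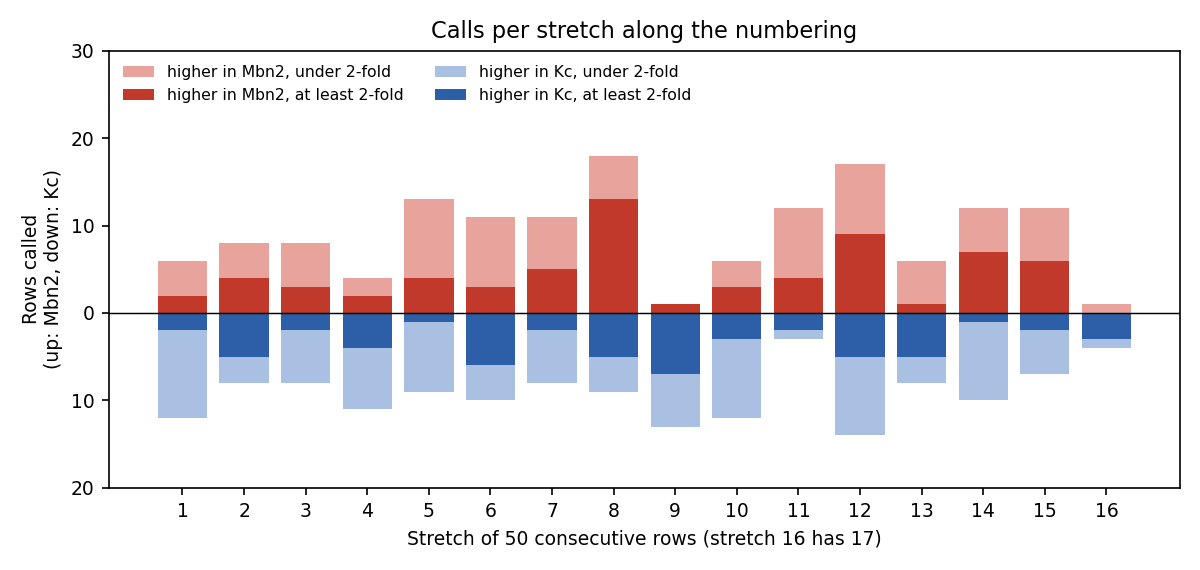
Number of called transcripts (vertical axis) in each stretch of 50 along the numbering (horizontal axis; stretch 16 has 17), drawn upwards where higher in Mbn2 and downwards where higher in Kc, with calls of at least 2-fold in the dark part of each bar. Stretch 8 has 18 upward and 9 downward calls, and stretch 9 has 1 and 13.

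Some large differences of neighbours ran the same way, and neighbours that differed in opposite directions were not counted. A group was counted where 2 or more transcripts called at least 2-fold in 1 direction had no more than 1 other transcript between them. The block held 11 groups higher in Mbn2, with 34 of the 67 such transcripts (50.7%), and 13 groups higher in Kc, with 27 of 55 (49.1%). Elsewhere 62.9% of the transcripts 2-fold higher in Mbn2 and 56.4% of those higher in Kc stood in groups. Such calls were also rarer in the block, at 8.74% and 7.17% of transcripts against 10.5% and 10.3% elsewhere. The shares in groups are therefore not compared at equal density. The block's groups had at most 5 members, and the largest group elsewhere had 11. Runs of 5 or more called transcripts in 1 direction numbered 3, all higher in Mbn2, with 6 transcripts in the longest. Among the other 14867 transcripts there were 75 such runs higher in Mbn2 and 107 higher in Kc, the longest of 14. The block is far smaller than this set, so the largest groups and the run counts are not compared at equal size. Without moderation of the variances the block held 0 runs, and 14 transcripts in groups higher in Mbn2 in place of 34. Whether the transcripts of a group belong to separate genes is not known here.

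Likeness between neighbours in the difference between the lines faded within a few places. The differences of adjacent transcripts correlated at r = 0.30 over 766 pairs in the block and at r = 0.31 over 14866 pairs elsewhere, those 2 places apart at 0.071 and 0.15, and those 10 places apart at 0.00092 and 0.045. The mean levels of adjacent transcripts correlated at r = 0.37 in the block and 0.38 elsewhere. For mean levels 5 places apart the values were 0.12 and 0.083, and for those 10 places apart 0.087 and 0.032. These are descriptions of transcripts that share the same 4 arrays.

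The groups named here were chosen after their values were seen. In the group FBtr0080860 to FBtr0080864, which holds FBtr0080861, the Kc means were 8.45, 6.51, 12.89 and 10.32. The Mbn2 means of the same 4 transcripts were 14.03, 14.03, 14.03 and 11.97. All 4 were higher in Mbn2, with differences of 5.58, 7.52, 1.14 and 1.65 log2 units.

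The pair FBtr0080389 and FBtr0080391 moved by nearly the same amount, with differences of 5.28 and 5.22. FBtr0080389 was at 8.51 and 9.04 in the Kc samples and 14.23 and 13.90 in the Mbn2 samples. FBtr0080391 was at 8.97 and 9.62 in Kc and 14.59 and 14.45 in Mbn2. In this pair no sample was dim, so the differences were 39.0-fold and 37.4-fold (limma adjusted p = 2.02e-05 and 2.57e-05).

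Within stretch 8, the 5 adjacent transcripts from FBtr0080616 to FBtr0080621 were all higher in Mbn2, by 1.40 to 4.37 log2 units. Their Kc means lay between 4.94 and 7.64 and their Mbn2 means between 6.34 and 9.84. Of these, FBtr0080617, FBtr0080618 and FBtr0080619 went from dim in Kc to bright in Mbn2. Earlier in the same stretch, 4 transcripts from FBtr0080592 to FBtr0080598 were higher in Mbn2 by 1.22 to 4.59. The Mbn2 samples of FBtr0080592 stood apart, at 9.52 and 10.71, and so did its Kc samples, at 5.17 and 5.87.

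The longest run, from FBtr0081002 to FBtr0081008, held 6 transcripts higher in Mbn2 by 0.56 to 5.18. FBtr0081005 was at 6.51 and 6.88 in Kc and 11.30 and 11.54 in Mbn2, and FBtr0081007 was at 5.25 and 5.41 in Kc and 10.37 and 10.64 in Mbn2. The third run, from FBtr0080824 to FBtr0080828, differed by 0.49 to 3.66.

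Groups higher in Kc were shorter. Of the 13, 12 had 2 members and 1 had 3. After the pair at the end of the block, the widest gap, by median difference, was that of FBtr0080256 and FBtr0080257, with Kc means of 8.10 and 10.10 and Mbn2 means of 5.46 and 6.32. FBtr0080362 and FBtr0080363 were nearly alike, at 9.51 and 9.58 in Kc and 7.57 and 7.63 in Mbn2, which was 3.83-fold and 3.88-fold higher in Kc (limma adjusted p = 6.15e-05 and 0.000143).

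**Figure D5:**
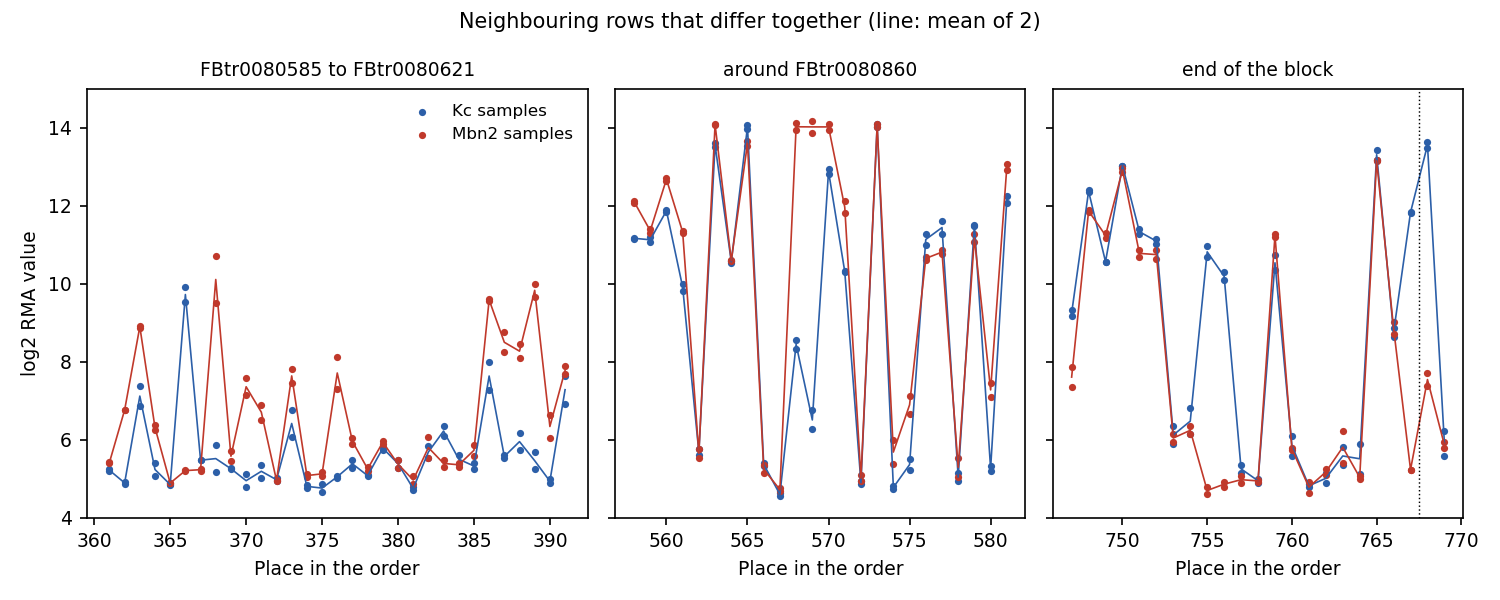
Log2 RMA values (vertical axis) of the 2 Kc and 2 Mbn2 samples for neighbouring transcripts in 3 windows of the block (horizontal axis, place in the order), with thin lines joining the line means. The left window covers stretch 8 from FBtr0080585 to FBtr0080621, the middle one the group at FBtr0080860, where 4 transcripts were higher in Mbn2 by 1.14 to 7.52, and the right one the end of the block (dotted line), where the CG17325 and CG10570 transcripts and FBtr0081123 just outside are high in Kc.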

How the data were processed

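Each sample has 1 deposited log2 value per transcript, computed by the authors with RMA according to the submitters' processing notes. In its usual form RMA makes the arrays' distributions alike, which removes any difference in total signal, and the deposited sample medians lay between 8.53 and 8.62. The RMA version, the annotation release and the build are not stated in those notes, and no detection call was used, so dim values show no true size. The number of arrays, 4, limits the precision.

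Mbn2 and Kc were set against each other by limma 3.58.1 (R 4.3.3, functions lmFit and eBayes, two-sided, no covariate) on all 15634 rows without further normalization, with Benjamini-Hochberg adjustment over all of them. The fit was tested on simulated data. Medians per sample were compared by exact permutation in scipy 1.17.1. Deviations of same-numbered samples were not shared (r = -0.048 over all rows), and the labels give no pairing.

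The block, its lists, the limits of 6, 8 and 9 and the tests were chosen with earlier results of these data known. Named are all rows paired with a gene symbol, the 2 unnamed rows per direction with the largest called difference and non-overlapping samples, and the ends of stretches and runs. Any other row was picked with its values known. The results were recomputed with a replicate block, with an intensity trend, without moderation, and with rows below the median level removed. Further alternatives were a second quantile normalization, centring, log2(value + 16) and single samples left out. An adjusted p under 0.01 and other limits and stretch lengths were also used.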

Additional observations from a re-analysis of the deposited data

How the results depend on the processing

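With a replicate block there were 140 calls towards Mbn2 and 139 towards Kc among the transcripts described, and the replicate block changed no call of the 8 named transcripts. Without moderation 77 calls pointed to Mbn2 and 79 to Kc, 39 were at least 2-fold higher in Mbn2, 14 of them stood in groups, and 0 runs of 5 were left. With transcripts below the median level left out of the fit, 97 calls pointed to each line, 24 and 19 at least 2-fold, 14 and 4 in groups, and 1 was dim-to-bright in each direction, because a low mean in 1 line lowers the overall mean on which the filter works. Centring on bright transcripts moved the median of those over 9 in both lines to 0.097 and the lowest stretch median to -0.014, by its own construction, and gave 5 runs. Limits of 5.5 and 9 left 8 transcripts bright in Mbn2 only and 5 bright in Kc only. Stretches of 25 transcripts had medians of -0.26 to 0.71. Leaving out single samples gave 114 to 141 calls towards Mbn2, 106 to 138 towards Kc, and a median over 9 in both lines of -0.045 (without Mbn2 replicate 2) to -0.0073. The median over all block transcripts changed sign, at -0.012 without Kc replicate 1 and 0.050 without Kc replicate 2. CG16974 was the one named transcript to lose its call, without moderation and without Mbn2 replicate 2. The other named transcripts stayed called, with the highest limma adjusted p at 0.0321 for Fatp1, without moderation. Leaving out transcripts below the median level removed 3 of the 8 from the test, so it gives no value for them.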
